A study of Mus musculus with 6 samples.

Results

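The genes described here are 9 mouse genes that encode cardiac sodium and potassium channel subunits: Scn10a, Kcnq1, Kcnh2, Kcnj2, Kcnj12, Kcnd2, Kcnd3, Kcnip2 and Kcne1. They were chosen by name, with earlier results of these data known, and they are 9 of 21951 protein-coding genes in the annotation. Every deposited ATAC-seq peak that overlapped a gene body or the 10 kb to either side of it was taken, without regard to its strength. Peaks of the 6 libraries that overlapped by at least 1 bp were merged into regions, which gave 175 regions in the 9 gene windows out of 169881 in the genome (mm10).

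ATAC-seq marks open chromatin by where a transposase can insert into DNA. Nuclei were taken from mouse hearts at postnatal day 1 and spun through a 2.2 M sucrose cushion, a density meant to keep cardiomyocyte nuclei and to leave out most others, and each library was made from 50000 nuclei. Input nuclei are taken here as coming from WT hearts and received no antibody step. Myc nuclei came from hearts carrying Nkx2-5 Cre/+ and R26RSun1-Myc-Egfp/+ and were captured with a Myc antibody, whereas PCM1 nuclei came from WT hearts and were captured with an antibody to PCM1, a protein that gathers at the nuclear envelope of cardiomyocytes. Cre driven by Nkx2-5 also labels cells outside the cardiomyocyte lineage, among them endothelial and smooth muscle cells, and the cushion came before the capture. The Myc group differs from the other groups in both genotype and antibody, and these cannot be told apart. Each group had 2 libraries, described as separate biological replicates, and whether a library held 1 heart or several was not given in the sources used here. Input nuclei were a portion of cushion nuclei of which the rest went on to the antibody step, so Input and PCM1 libraries may share a preparation. Which of them do was not given in the sources used here. In the paper's schematic the cushion nuclei came from hearts of both genotypes, so Input may not be WT alone and may share a preparation with Myc.

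The libraries differed in depth. The genome-wide background pileup was taken as the most common local background, in tags, at the peak summits of a library. It stood at 3.96 and 1.02 for the pair of Input libraries, 1.44 and 1.44 for Myc, and 0.977 and 0.903 for PCM1. The first Input replicate was therefore 4.38 times as deep as the shallowest library, and it listed 131500 peaks, against 75336 in the other Input replicate, 107216 and 108513 in Myc, and 83139 and 81487 in PCM1. For this reason the strength of a peak is given as its rank percentile by −log10 q among the peaks of its own library, where 100 is the strongest peak and 0 stands for no peak. Where a pileup is given, it is the number of tags over the strongest summit of each library, which need not be the same base in all libraries. Its ratio to the genome-wide background of the same library is given beside it so that depth is divided out. The percentile and this ratio need not put the groups in the same order. Where no group is named, values are in the order Input, Myc, PCM1.

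All 6 libraries had strong peaks at genes that mark cardiomyocytes. Of 10 cardiomyocyte markers, among them Myh6, Tnnt2, Ryr2 and Ttn, all 10 had a peak within 1 kb of a transcription start site (TSS) in each library, and their percentiles summed to 944 and 904 (Input), 881 and 912 (Myc) and 905 and 905 (PCM1). Markers of other cells were not absent. The 10 fibroblast markers summed to 620 and 406 (Input), 578 and 623 (Myc) and 408 and 351 (PCM1), with Pdgfra or Col1a1 the strongest, and the 10 endothelial markers summed to 750 and 529, 733 and 754, and 575 and 640, with Tie1 the strongest in each library. Smooth muscle and pericyte markers had a peak for 9 of 10 genes in each library, with sums of 683 and 487 (Input), 563 and 629 (Myc) and 524 and 432 (PCM1). Of the 10 immune markers, 6 (Ptprc, Csf1r, Cd68, Adgre1, Cx3cr1 and Fcgr1) had no TSS peak in any library, and the list summed to 70.3 and 0, 34.4 and 0, and 0 and 0.725. Neuronal and glial markers had a peak for 5 to 7 of 10 genes and summed to 367 and 303, 371 and 353, and 297 and 380, with Snap25 the strongest in Input and Myc and Stmn2 at 0 throughout. The sums for fibroblasts, endothelial cells, and smooth muscle cells and pericytes were higher in both Myc libraries and in the deeper Input replicate than in PCM1, and their part in the results that follow was not tested.

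The action potential of the heart begins with inward sodium current and ends as potassium leaves the cell. The transient outward current gives the early notch, the rapid and slow delayed rectifiers carry repolarisation, and the inward rectifier holds the resting potential. Mouse ventricle relies strongly on the transient outward current as it matures, and the delayed rectifiers are more prominent in the fetal and newborn heart and in large mammals. Pore-forming subunits set the current, and accessory subunits such as Kcne1 and Kcnip2 change its size and timing.

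Of the 9 genes, 8 had a peak within 1 kb of a TSS in all 6 libraries, compared with 59.6% of all protein-coding genes, and the exception was Scn10a, which had none in any library, as did 28.7% of all protein-coding genes. With only the 75336 strongest peaks of each library, the count was 7 of 9, compared with 58.4%. Of the 175 regions, 64 were open in all 6 libraries (36.6%), compared with 28.8% of all regions. Of these, 49 had their summit in an intron, 8 upstream and 4 downstream of the gene, and 3 in a UTR, and 10 of the 64 lay at a TSS of the member itself. A further 47 regions were found in a single library (26.9%, compared with 30.4% of all regions), 18 of them in the deeper Input replicate and 12 in the first PCM1 replicate. Per 10 kb of window, the members had between 0.262 regions in Kcnd2 and 2.88 in Kcnh2, with a median of 1.91 against 1.02 over all protein-coding genes.

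**Figure D1:**
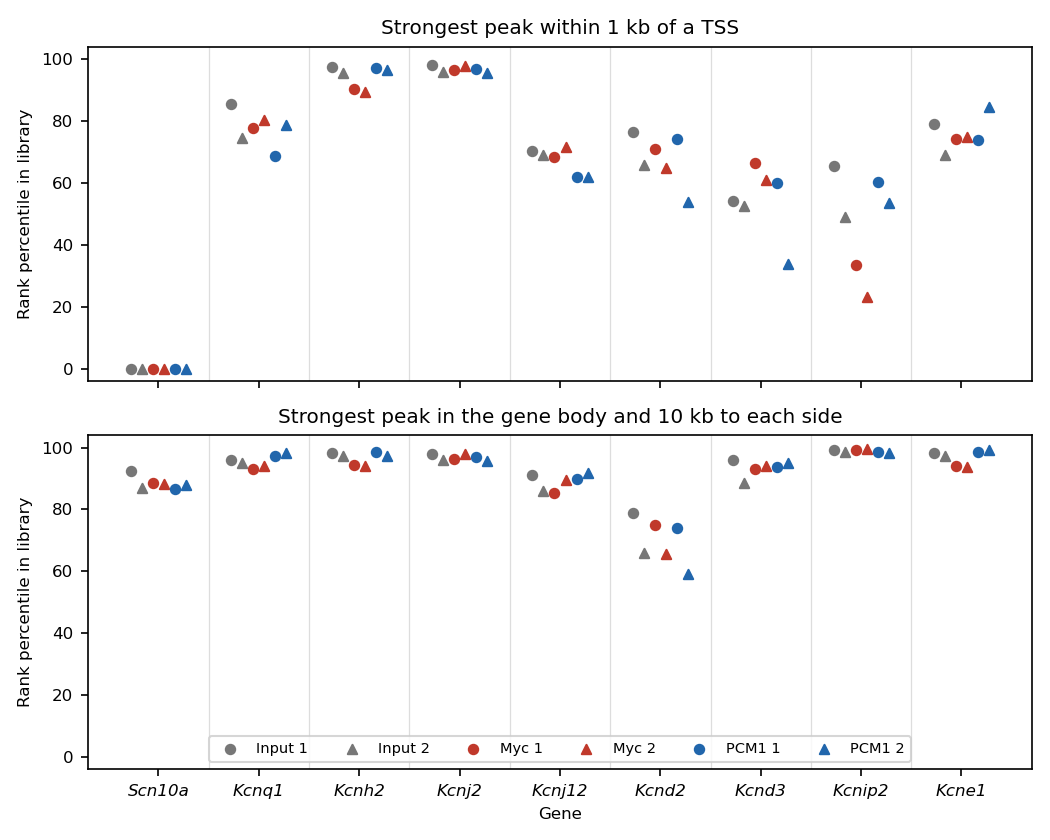
Rank percentile (0 to 100, no unit) of the strongest peak within 1 kb of a TSS (top) and in the gene body with 10 kb to each side (bottom), with 1 symbol per library, circles for replicate 1 and triangles for replicate 2. Scn10a is at 0 in the top panel and between 86.7 and 92.5 in the bottom panel, and the Myc libraries are lowest in the top panel for Kcnh2 and Kcnip2. For Kcnh2 the peak in the top panel has its summit at different places in the groups.

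Scn10a encodes a voltage-gated sodium channel best known from sensory neurons. It lies on the minus strand at chr9:119608456-119719322, and no peak lay within 1 kb of its TSSs. Inside the gene, 3 intronic regions were open in all 6 libraries. The region at chr9:119631827-119632602 had percentiles of 92.5 and 86.3 (Input), 88.6 and 85.8 (Myc) and 80.4 and 79.7 (PCM1). Both PCM1 libraries were lowest there by percentile. With depth divided out this order was not seen: the pileup was 80.1 and 79.1 times background (Input), 68.7 and 59.9 times (Myc) and 61.4 and 63.1 times (PCM1), so that Myc and PCM1 overlapped and Input was highest. At chr9:119634163-119634639, in the same part of the gene, the order was different: the percentiles were 91.1 and 81.9 (Input), 76.1 and 77.0 (Myc) and 86.7 and 88.0 (PCM1), so that Myc was lowest. The pileup there was 43.0 and 43.9 times the genome-wide background in Myc, compared with 72.3 and 66.4 in Input and 77.8 and 84.2 in PCM1. The summits of the libraries lay between chr9:119634360 and chr9:119634440. The last of the 3, at chr9:119706645-119707106, lay 12.1 kb inside the gene from the nearest TSS and had percentiles of 90.3 and 87.1, 84.4 and 88.3, and 77.6 and 88.0, with all groups overlapping. The strongest peaks of the gene were therefore in introns in every library, with a mean percentile of 88.5 ± 2.07 (SD, n = 6) for the strongest.

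Kcnq1 encodes the pore of the slow delayed rectifier, and with 321 kb and 65 regions it had the most regions of the 9 genes, 25 of them in all 6 libraries. The region open in all 6 libraries with the highest mean percentile was intronic, at chr7:143124072-143124719, 15.3 kb downstream of the nearest TSS of Kcnq1 and over the start of another annotated transcript, Gm38321. The percentiles were 96.0 and 94.9 (Input), 89.0 and 92.7 (Myc) and 97.3 and 98.2 (PCM1), so the groups did not overlap and Myc was lowest. The pileup was 126 and 146 times background (Input), 75.6 and 98.9 times (Myc) and 194 and 235 times (PCM1). At its TSSs Kcnq1 reached 85.5 and 74.5 (Input), 77.8 and 80.2 (Myc) and 68.8 and 78.9 (PCM1), and there the groups overlapped.

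The window of Kcnq1 also holds the start of Kcnq1ot1, an antisense noncoding RNA known for imprinted silencing of the neighbouring genes. The region over that start, chr7:143296228-143297044, was open in all 6 libraries with percentiles of 93.6 and 91.5 (Input), 93.1 and 94.0 (Myc) and 92.2 and 89.3 (PCM1). In both Myc libraries it had the highest percentile of the whole Kcnq1 window. Beyond the 3′ end, chr7:143428495-143428889 had a peak in both Input libraries, at percentiles of 59.3 and 51.6, and in no other library. It was the stronger of 2 such regions in the 9 windows, and 1.08% of all regions were of this kind. The 1 region of Myc alone, in an intron of Kcnd3 at chr3:105627324-105627795, had percentiles of 14.3 and 3.19, against a share of 1.84% of all regions, and no region was found in PCM1 alone, against 0.254%. These counts moved with single libraries, and the share of all regions moved with them. Without the shallower Input replicate, 20 of 173 regions were found in Input alone (11.6%, compared with 13% of all regions). Without the deeper one, 4 of 160 were found in Input alone (compared with 2.75%), 6 in Myc alone (compared with 7.11%) and 1 in PCM1 alone (compared with 0.913%). Without the first Myc replicate 8 of 170 were found in Myc alone (compared with 7.75%), and without the second 7 of 170 were (compared with 7.79%), with 1 in PCM1 alone (compared with 0.352%). Without the first PCM1 replicate, 3 of 163 were found in PCM1 alone (compared with 3.31%) and 4 in Input alone (compared with 1.42%), and without the second 12 of 173 were found in PCM1 alone (6.94%, compared with 3.93%).

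Kcne1 encodes the accessory subunit that slows the opening of the Kcnq1 channel. At its TSS the percentiles were 79.0 and 69.2 (Input), 74.2 and 74.8 (Myc) and 74.1 and 84.6 (PCM1), with overlap between all groups. The pileup there was 37.4 and 43.0 times background (Input), 37.5 and 38.3 times (Myc) and 51.2 and 79.7 times (PCM1), and on this scale both PCM1 libraries were highest. The strongest region lay past the 3′ end of the gene, at chr16:92345106-92345659, with percentiles of 98.4 and 97.3 (Input), 93.9 and 93.7 (Myc) and 98.5 and 99.1 (PCM1). Myc was lowest and PCM1 highest, without overlap, and the pileup was 203 and 207 times background (Input), 129 and 127 times (Myc) and 237 and 283 times (PCM1). The tags counted there were 804 (exact 95% Poisson interval 749 to 862, counting error only) in the deeper Input replicate and 182 (157 to 210) in the second Myc replicate. Farther downstream, chr16:92336331-92336649 showed a different order. It had percentiles of 73.6 and 50.8 in Input and 81.7 and 64.8 in Myc, and no peak in PCM1.

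Kcnh2 encodes the pore of the rapid delayed rectifier and had the most regions per length. It had 15 regions in a window of 52.0 kb, 8 of them in all 6 libraries. Its region with the highest mean percentile was intronic, at chr5:24337189-24337869, with percentiles of 98.2 and 97.4 (Input), 94.2 and 94.0 (Myc) and 98.4 and 97.4 (PCM1). At the upstream TSS, chr5:24351562-24352979, they were 97.4 and 95.5, 90.4 and 89.5, and 97.3 and 96.6. In both regions the Myc libraries were below all others by percentile. At the intronic region the pileup was 114 and 114 times background in Myc, compared with 172 and 193 in Input and 211 and 190 in PCM1. The summit there lay at chr5:24337462 in the shallower Input replicate and between chr5:24337557 and chr5:24337576 in the others. The region over the upstream TSS is broad, and its strongest summit was not at the same place in each group. It lay at chr5:24351756 and chr5:24351826 in Myc, at chr5:24352666 in both Input libraries and at chr5:24352734 in both PCM1 libraries. The TSS itself is at chr5:24351604. The strongest summits of Input and PCM1 thus lay more than 1 kb upstream of it, and those of Myc lay close to it. The pileups of that region are therefore not compared here. Its percentiles, also used for the comparison with Kcnq1 below, are likewise those of different summits. A region 9.39 kb upstream of the gene, chr5:24360746-24361471, had the opposite order. There the percentiles were 73.0 and 52.4 (Input), 84.9 and 80.7 (Myc) and 58.5 and 55.6 (PCM1), so that Myc was highest.

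**Figure D2:**
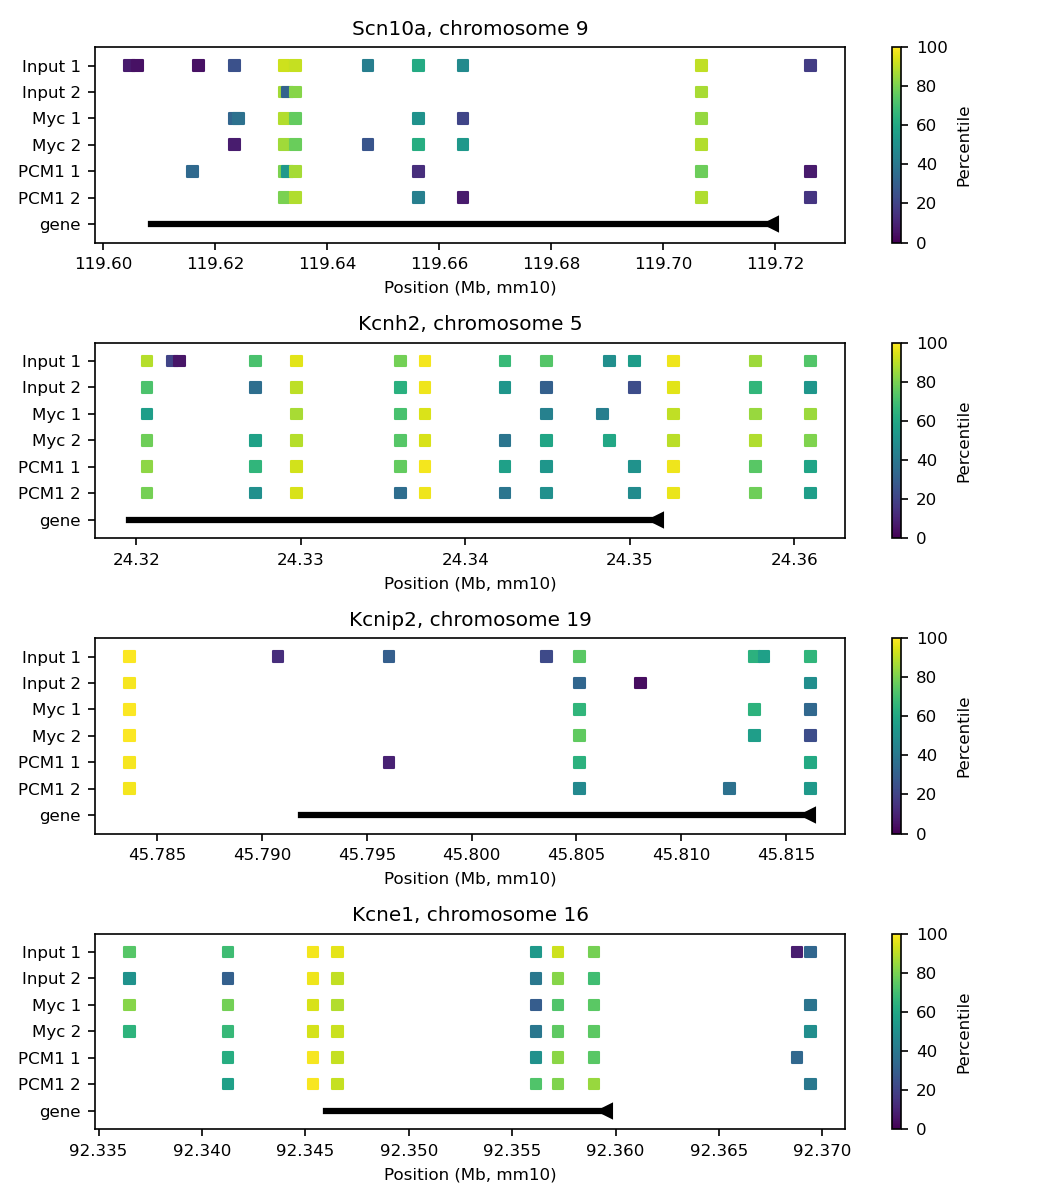
Regions along Scn10a, Kcnh2, Kcnip2 and Kcne1 with 10 kb to each side (position in Mb, mm10), with 1 row per library and colour for the rank percentile; symbols mark region summits and are not drawn to the width of the peaks, and the black bar is the gene with its arrowhead at the 5′ end. In Scn10a the strong regions lie inside the gene and none lies at the 5′ end, and in Kcne1 the region at the left edge is missing from both PCM1 libraries.

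The slow and rapid delayed rectifiers were compared by their TSS percentiles within each library. Kcnq1 was lower than Kcnh2 in 6 of 6 libraries, by a mean difference (Kcnq1 minus Kcnh2) of -16.8 ± 7.15 points (SD, n = 6; two-sided exact sign-flip permutation test, p = 0.03125, adjusted p = 0.03125 over 3 pairs), and 0.03125 is the smallest p that 6 libraries can give. Kcnq1 has 7 annotated protein-coding TSSs and Kcnh2 has 2, and the part of this in the difference was not tested. The 6 libraries came from 3 groups, some may share a preparation, and these p-values measure the spread between libraries only.

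Kcnj2 and Kcnj12 encode pores of the inward rectifier. Kcnj2 is a short gene of 10.7 kb with 5 regions, and only its TSS region was open in all 6 libraries, at chr11:111065645-111066617. Its percentiles there were 98.1 and 95.8 (Input), 96.4 and 97.8 (Myc) and 96.8 and 95.6 (PCM1), and the groups overlapped. The TSS of Kcnj12, at chr11:61022079-61022835, had 70.4 and 69.2 (Input), 68.6 and 71.6 (Myc) and 61.9 and 62.0 (PCM1). Both PCM1 libraries were below all others by percentile. Over all protein-coding genes, the TSS percentile was lower in PCM1 than in Myc for 45.2% and lower than in Input for 25.3%. With depth divided out the order turned for Myc and PCM1, since the pileup was 31.8 and 46.9 times background (Input), 38.2 and 41.8 times (Myc) and 46.1 and 46.5 times (PCM1). Kcnj2 was higher than Kcnj12 in 6 of 6 libraries, by 29.5 ± 3.78 points (SD, n = 6; two-sided exact sign-flip permutation test, p = 0.03125, adjusted p = 0.03125). The region of Kcnj12 with the highest mean percentile was in an intron, at chr11:61059705-61060434, with percentiles of 91.0 and 85.5, 85.2 and 89.5, and 85.0 and 84.8. Both PCM1 libraries were lowest by percentile, and their pileups of 59.4 and 60.9 times background lay within the range of the other groups. It was 1 of 8 regions of Kcnj12 that were open in all 6 libraries.

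Kcnd2 and Kcnd3 encode pores of the fast transient outward current. Kcnd2 is the longest of the 9 genes at 514 kb, yet it had 14 regions, and 2 of them were open in all 6 libraries. Its TSS region, chr6:21214633-21215828, had percentiles of 76.5 and 66 (Input), 71.1 and 64.8 (Myc) and 74.1 and 53.9 (PCM1). An intronic region at chr6:21267684-21268230 was weaker in the mean, with 78.8 and 47.8, 74.9 and 65.7, and 38.3 and 59.2. All groups overlapped at the TSS. At the intronic region both Myc libraries were above both PCM1 libraries by percentile, but their pileups of 22.2 and 17.4 times background overlapped with 11.3 and 17.7 times in PCM1.

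The TSS region of Kcnd3, chr3:105452060-105453263, which also covers the start of the antisense transcript Kcnd3os, had percentiles of 54.2 and 52.4 (Input), 66.4 and 60.9 (Myc) and 59.9 and 33.8 (PCM1). Myc was above the other groups there by percentile. At the TSS it was above PCM1 for 45.2% of all protein-coding genes and above Input for 20.7%. By the pileup at the strongest summit of this region Myc was also highest, with 25.7 and 24.4 times background. Input had 12.1 and 20.5 times and PCM1 had 22.5 and 16.6 times. The strongest summit was not at the same base in each library. In the second PCM1 replicate it lay at chr3:105452621, compared with chr3:105452377 and chr3:105452382 in Myc. Kcnd2 was higher than Kcnd3 at the TSS in 6 of 6 libraries, by 13.1 ± 7.62 points (SD, n = 6; two-sided exact sign-flip permutation test, p = 0.03125, adjusted p = 0.03125). The difference was 22.3 and 13.5 points (Input), 4.67 and 3.93 points (Myc) and 14.2 and 20.1 points (PCM1), so it was smallest in both Myc libraries. With peaks ranked by the pileup at the summit instead, the difference was 6.75 points and the exact permutation test gave an adjusted p = 0.09375, so this order depends on the ranking. Inside the gene the order of the pair was the other way. The intronic region of Kcnd3 at chr3:105521019-105521786 reached 95.9 and 88.6 (Input), 93.0 and 94.1 (Myc) and 93.7 and 94.9 (PCM1), and no region of Kcnd2 exceeded 78.8 in any library. The groups overlapped at that region of Kcnd3 by percentile, and by pileup PCM1 was highest, with 87.0 and 101 times background compared with 86.2 and 65.4 times in Input and 78.4 and 84.3 times in Myc.

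Kcnip2 encodes an accessory subunit that brings the Kcnd channels to the membrane and shapes their inactivation. The strongest peak in its window belonged to a neighbour: chr19:45782587-45784064 covers the start of Mgea5 and had percentiles from 98.4 to 99.6. Kcnip2 has 9 annotated protein-coding TSSs. The strongest region at any of them was chr19:45815736-45816528, with 65.6 and 49.0 (Input), 33.4 and 23.1 (Myc) and 60.3 and 53.5 (PCM1). In that region both Myc libraries were below all others. The pileup was 20.2 and 21.5 times background (Input), 15.3 and 14.6 times (Myc) and 31.7 and 32.1 times (PCM1), from 22 and 21 tags in Myc (exact 95% Poisson intervals 13.8 to 33.3 and 13.0 to 32.1, counting error only). The summit lay at chr19:45815831 in the second Myc replicate and between chr19:45816119 and chr19:45816250 in the others, so the pileups are those of the strongest summit of each library and not of 1 shared base. Another region, chr19:45813306-45813692, had its summit 1.20 kb from the nearest TSS of Kcnip2 and was not counted as a TSS region. There Myc was not lowest: the percentiles were 63.8 and 0 (Input) and 64.1 and 55.6 (Myc), with no peak in PCM1. With the gene body alone, the strongest peak of Kcnip2 averaged a percentile of 61.7 over the Input libraries, 70.6 over Myc and 58.7 over PCM1, since the neighbour's peak was then left out.

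An exact permutation test of 2 libraries against 2 allows no p below 0.333, so none was made between groups, and they were compared by whether their percentiles overlapped. The percentile also differed between libraries over all genes, and the peak lists differed in length. Over all protein-coding genes the median at the TSS was 82.2 and 66.2 (Input), 80.3 and 79.9 (Myc) and 65.7 and 64.1 (PCM1). The counts are therefore read only beside the share of all genes, and the part of list length in these medians was not tested. At the TSS, Myc was above PCM1 for 2 of 9 genes (Kcnj12 and Kcnd3), compared with 45.2% of all genes. Myc was above Input for 1 (Kcnd3), compared with 20.7%, and Input above PCM1 for 1 (Kcnj12), compared with 25.3%. For Kcnh2 and Kcnip2, Input was above Myc (compared with 6.28%) and PCM1 above Myc (compared with 5.59%). PCM1 was above Input for 0, compared with 2.54%. By the strongest peak in the window, both Input libraries were above both Myc libraries for 3 of 9 genes (Kcnq1, Kcnh2 and Kcne1), compared with 11.7% of all genes with a peak, and both PCM1 libraries were above both Myc libraries for 4 of 9 (the same genes and Kcnj12), compared with 11.9%. The strongest peak was not always in the same region: for Kcnj12 it was another region in each PCM1 library than in Myc, with 89.9 the lower PCM1 and 89.5 the higher Myc value, and for Kcnq1, Scn10a and Kcnd2 it also differed between libraries. PCM1 was above Input for 2 of 9 (Kcnq1 and Kcne1), compared with 5.48%. Input was above PCM1 for 1 of 9 (Kcnip2, through the neighbour's peak), compared with 33.1%. Myc was above PCM1 for 2 of 9 (Scn10a, and Kcnip2 again through the neighbour's peak), compared with 60.3%, and above Input for 0 of 9, compared with 28.8%. With equally long peak lists (the strongest 75336 of each library), 4 genes were higher in Input than in Myc (compared with 21.7% of genes with a peak) and 6 in PCM1 than in Myc (compared with 22.3%). In the same setting 4 were higher in PCM1 than in Input (compared with 22.0%), 1 in Input than in PCM1 (compared with 31.8%), 1 in Myc than in Input (compared with 38.7%) and 1 in Myc than in PCM1 (compared with 43.4%). With ranks by fold in place of −log10 q, 0 genes were higher in Myc than in PCM1 (compared with 46.7%), 2 in PCM1 than in Myc (compared with 16%) and 1 in PCM1 than in Input (compared with 10%). With ranks by pileup, 1 was higher in Myc than in Input (compared with 28.6%). With the gene body alone, 0 genes were higher in Input than in PCM1 (compared with 33.1%) and 1 in PCM1 than in Input (compared with 4.71%).

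Single libraries moved these counts, and the share of all genes moved in the same direction. Without the shallower Input replicate, 8 of 9 genes were higher in Input than in Myc (compared with 47.8% of all genes with a peak) and 5 in Input than in PCM1 (compared with 82.1%). Without the deeper Input replicate, 4 genes were higher in Myc than in Input (compared with 73.8%) and 4 in PCM1 than in Input (compared with 38%). Without the first PCM1 replicate, 4 genes were higher in Input than in PCM1 (compared with 45.8%) and 4 in Myc than in PCM1 (compared with 68.7%). Without the second, 2 were higher in Input than in PCM1 (compared with 43.6%), and without the first Myc replicate 1 was higher in Myc than in Input (compared with 39.9%).

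The order of the groups was also counted over the regions. Of 175 regions, 30 were higher in both Input than in both Myc libraries (17.1%, compared with 8.41% of all regions) and 31 were higher in PCM1 than in Myc (17.7%, compared with 7.14%). In the other directions, 9 were higher in Myc than in Input (compared with 12.2%), 35 in Myc than in PCM1 (compared with 27.9%), 19 in Input than in PCM1 (compared with 15.7%) and 4 in PCM1 than in Input (compared with 2.7%). Among regions open in all 6 libraries, 34.4% of those of the members were higher in Input than in Myc and 39.1% were higher in PCM1 than in Myc, compared with 15.2% and 16.4% of all such regions. In the other directions, 28.1% of those of the members were higher in Myc than in PCM1 (compared with 45.6%), 6.25% in Myc than in Input (compared with 17.6%), 15.6% in Input than in PCM1 (compared with 27.9%) and 3.12% in PCM1 than in Input (compared with 4.80%). Of the 30 regions higher in Input than in Myc, 11 were among the 65 of Kcnq1, 5 among the 15 of Kcnh2 and 5 among the 14 of Kcnj12. With equally long peak lists the windows held 133 regions, of which 45 were higher in Input than in Myc (33.8%, compared with 17.2% of all regions) and 46 in PCM1 than in Myc (34.6%, compared with 18.4%). There 28 were higher in PCM1 than in Input (compared with 14.9%), 19 in Input than in PCM1 (compared with 16.3%), 11 in Myc than in PCM1 (compared with 20.2%) and 9 in Myc than in Input (compared with 18.0%). Without the shallower Input replicate, 109 of 173 regions were higher in Input than in Myc (63%, compared with 51.1% of all regions) and 113 in Input than in PCM1 (65.3%, compared with 65.8%). Without the deeper replicate, 51 of 160 were higher in Myc than in Input (31.9%, compared with 42%) and 51 in PCM1 than in Input (compared with 21.1%). Leaving out the first or the second Myc replicate gave 30 or 27 of 170 regions higher in Myc than in Input (17.6% and 15.9%, compared with 28.2% and 27.9%), and without the first 65 were higher in Myc than in PCM1 (38.2%, compared with 46.1%). Leaving out the first PCM1 replicate gave 23 of 163 regions higher in PCM1 than in Input (14.1%, compared with 11.2%) and 33 in Input than in PCM1 (20.2%, compared with 22.6%). Leaving out the second gave 28 of 173 higher in PCM1 than in Input (16.2%, compared with 12.4%) and 61 in PCM1 than in Myc (35.3%, compared with 18.5%). With ranks by fold, 34 of 175 were higher in Input than in PCM1 (19.4%, compared with 15.6%). The Myc libraries also had longer peak lists and higher fibroblast, endothelial and smooth muscle sums than PCM1, and the part of these in the order of the groups was not tested.

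A wider list of 47 channel subunit genes gave a setting for the TSS values, and 46 of them were found in the annotation. Of these, 27 had a TSS peak in all 6 libraries (58.7%), 16 in some libraries, and 3 (Scn2b, Scn4a and Kcne4) in none. In this list the genes nearest to each member in TSS percentile, by mean absolute difference over the 6 libraries, were Kcnn2 for Kcnj2 (1.63 points), Kcng2 for Kcnh2 (1.97), Kcna5 for Kcnq1 (3.15) and for Kcne1 (6.84), and Kcne3 for Kcnd3 (6.86) and for Kcnj12 (7.25). For Kcnd2 it was Abcc9 (8.0) and for Kcnip2 it was Kcnj3 (8.50). Kcnn2, a calcium-activated potassium channel, had 97.0 and 95.4 (Input), 96.1 and 94.4 (Myc) and 94.1 and 93.8 (PCM1). Scn10a had the same values as the 3 genes without a peak.

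Of the 9 genes, 7 were matched in the RefSeq promoter table (GRCm38.p6, 250 bases before to 50 after the start), and their G and C content was 74.3% in Kcnh2, 68.7% in Kcnd2, 67% in Kcnip2, 66.7% in Kcnj2, 64% in Kcnd3, 57% in Kcnj12 and 51.7% in Scn10a, compared with a median of 53.3% over all genes in the table. By the ratio of observed to expected CpG the order was different: Scn10a, lowest in G and C, had 0.553, compared with a median of 0.415, and Kcnj12 with 0.165 was the 1 gene of the 7 below that median. The others had 0.923 (Kcnd3), 0.740 (Kcnd2), 0.555 (Kcnh2), 0.541 (Kcnip2) and 0.540 (Kcnj2).

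The sequences round the summits of 8 regions described above, 1 for each gene other than Scn10a, are given here on the plus strand of GRCm38.p6. Motif matches on either strand are in capitals. The letters searched were AGATAA for the GATA motif, CTAAAAATA for the MEF2 motif, GGAATG for the TEAD motif and AGGTGT for the T-box motif. They were TNAAGTG for the motif of NKX2-5, CAGCTG for the E-box, CAAGGTCA for the motif of nuclear receptors, TGANTCA for the motif of AP-1 and AGGGGGC for the motif of CTCF. The intronic regions of Kcnh2 and Kcnq1, the region past the 3′ end of Kcne1 and the TSS region of Kcnip2 were lowest in Myc. By percentile the intronic region of Kcnj12 was lowest in PCM1 by a small margin (85.0 and 84.8, compared with 85.2 in the first Myc replicate). By pileup PCM1 was not lowest there. The intronic region of Kcnd3 was strong in all libraries, the TSS region of Kcnd2 had overlapping groups, and the window of Kcnj2 ends at the base before the TSS.
Kcnh2, intron, chr5:24337463-24337662: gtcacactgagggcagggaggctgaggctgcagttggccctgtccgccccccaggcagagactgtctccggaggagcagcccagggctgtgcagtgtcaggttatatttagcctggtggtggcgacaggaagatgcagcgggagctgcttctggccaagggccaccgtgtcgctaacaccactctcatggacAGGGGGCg
Kcne1, downstream of the gene, chr16:92345266-92345465: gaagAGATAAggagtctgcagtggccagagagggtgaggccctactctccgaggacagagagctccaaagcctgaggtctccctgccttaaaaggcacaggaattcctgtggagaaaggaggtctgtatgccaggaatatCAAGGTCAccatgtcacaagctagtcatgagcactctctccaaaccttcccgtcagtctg
Kcnq1, intron, chr7:143124376-143124575: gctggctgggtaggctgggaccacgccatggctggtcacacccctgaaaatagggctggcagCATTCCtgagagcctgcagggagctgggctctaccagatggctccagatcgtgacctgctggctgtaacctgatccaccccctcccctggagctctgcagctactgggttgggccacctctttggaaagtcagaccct
Kcnd3, intron, chr3:105521333-105521532: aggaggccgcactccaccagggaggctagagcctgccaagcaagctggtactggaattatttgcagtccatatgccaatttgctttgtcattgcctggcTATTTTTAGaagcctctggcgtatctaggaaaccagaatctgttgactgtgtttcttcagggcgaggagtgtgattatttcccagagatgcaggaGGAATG
Kcnj2, upstream of the TSS, chr11:111066002-111066163: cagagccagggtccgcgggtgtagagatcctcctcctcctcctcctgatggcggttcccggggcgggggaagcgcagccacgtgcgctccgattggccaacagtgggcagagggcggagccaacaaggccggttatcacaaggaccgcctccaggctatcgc
Kcnj12, intron, chr11:61059885-61060084: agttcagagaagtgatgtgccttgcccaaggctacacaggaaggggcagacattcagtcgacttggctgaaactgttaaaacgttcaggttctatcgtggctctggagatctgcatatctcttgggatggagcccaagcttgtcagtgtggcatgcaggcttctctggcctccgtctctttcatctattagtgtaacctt
Kcnd2, upstream of the TSS, chr6:21215169-21215368: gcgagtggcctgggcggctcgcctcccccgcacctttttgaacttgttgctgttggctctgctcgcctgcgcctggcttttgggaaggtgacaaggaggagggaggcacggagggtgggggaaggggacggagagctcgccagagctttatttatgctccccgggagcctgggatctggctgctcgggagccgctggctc
Kcnip2, upstream of the TSS, chr19:45816083-45816282: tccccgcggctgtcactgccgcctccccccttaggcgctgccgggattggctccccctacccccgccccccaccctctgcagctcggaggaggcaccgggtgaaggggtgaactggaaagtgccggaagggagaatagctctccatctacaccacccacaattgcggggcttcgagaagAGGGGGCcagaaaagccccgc

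The Kcne1 window held a GATA and a nuclear receptor match, and the Kcnd3 window held a MEF2 and a TEAD match. The Kcnq1 window had a TEAD match, those of Kcnh2 and Kcnip2 had a CTCF match, and those of Kcnj2, Kcnj12 and Kcnd2 had none of the 9 motifs. Over windows of 200 bases on the summits of all 48861 regions open in 6 libraries, 10.2% held the GATA letters, 2.02% MEF2, 14.3% TEAD, 7.64% T-box, 9.37% NKX2-5, 20.8% E-box, 2.21% nuclear receptor, 7.55% AP-1 and 8.02% CTCF. Of the 64 such windows of the members, 11 held GATA, 2 MEF2, 9 TEAD, 6 T-box, 6 NKX2-5, 15 E-box, 2 nuclear receptor, 5 CTCF and 0 AP-1. A match shows only that the letters are in the window.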

How the data were processed

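ATAC-seq libraries from 3 groups of 2 were analysed. Per the authors, reads were trimmed with fastq-mcf, mapping to mm10 used Bowtie2 2.3.3.1, and duplicates were marked with Picard 2.2.1. Listed regions were taken out with bedtools 2.7.1, and read ends were moved for Tn5. MACS2 2.1.0.20160309 called peaks per library at q 0.05 against random background. The deposited files give a score (10 times −log10 q, with an upper limit of 1000, not used), the fold over local background, and −log10 of p and q. Pileups were solved from the fold and −log10 p with the Poisson formula of the caller, tested on simulated data, and came out whole within 0.02 for 100% of peaks (rounded) in each library.

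Genes were those of GENCODE M21, and sequences came from RefSeq GRCm38.p6. The 3 pairs of genes were compared with exact sign-flip permutation tests over the 6 libraries, and alternatives were other windows, peak lists, thresholds and rankings and each library left out. The members and lists were chosen with earlier results of these data known. Background shares at the TSS use all 21951 protein-coding genes. Those of the order of groups by the strongest peak in the window use the 18624 with a peak there. The shares with equal numbers of peaks were added after seeing the data. A smaller set of 21911, without 13 mitochondrial genes and 27 repeated symbols, was first used because its size equals a gene number already stated for these data; it was not part of the design, and it is kept as an added alternative only.

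Named were all 9 members, for each the strongest region open in all 6 libraries and its TSS region, for each group the strongest region of that group alone, the nearest gene of the wider list, and genes of that list without a peak; other regions were chosen after their values were seen. Kcne5 was not found in the annotation under that symbol. Sequences of Scn10a were not printed, and 1 marker gene is not reported here by name. Python 3.11.15, numpy 2.4.6, pandas 2.3.3, scipy 1.17.1, pysam 0.24.0 and matplotlib 3.10.9 were used.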

Additional observations from a re-analysis of the deposited data

How the results depend on the processing

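No paired analysis was possible because the sources used here do not say which Input and antibody libraries share a preparation; the counts of regions and genes by group take no account of that, and the sign-flip tests compare genes within each library. Alternatives were the gene body alone, an equal number of the strongest peaks, q of 0.01, the summit inside the window, ranks by fold or by summit pileup, 200 bp round the TSS, the 5′ end of the gene alone, and each library left out. The differences for Kcnj2 and Kcnj12 and for Kcnq1 and Kcnh2 kept their direction and their side of 0.05 in every alternative that used all 6 libraries. With ranks by pileup, Kcnd2 minus Kcnd3 was 6.75 (exact permutation test, adjusted p = 0.09375; the range over alternatives with 6 libraries was 0.03125 to 0.09375), and the cause was not tested. With 1 library left out the smallest exact p is 0.0625, so no difference could pass: Kcnd2 minus Kcnd3 ranged from 11.3 to 15, Kcnj2 minus Kcnj12 from 28.4 to 30.1, and Kcnq1 minus Kcnh2 from -18.3 to -14.5. With the gene body alone, regions of Input alone numbered 1, genes with Input above PCM1 0, and genes with PCM1 above Input 1. With equal numbers of peaks, 7 genes had a TSS peak in all 6 libraries, regions of Input, Myc and PCM1 alone numbered 1, 0 and 1, genes with Myc above Input 1, Myc above PCM1 1, PCM1 above Input 4 and PCM1 above Myc 6, and regions with Myc above PCM1 11 and PCM1 above Input 28. With ranks by fold, genes with Myc above PCM1 numbered 0, PCM1 above Input 1 and PCM1 above Myc 2, and regions with Input above PCM1 34. With ranks by pileup, 1 gene had Myc above Input. The causes were not tested. With 1 library left out, a group can hold a single library, which makes groups separate more easily. Regions of Input alone ranged from 2 to 20, of Myc from 1 to 8 and of PCM1 from 0 to 12. Genes ranged from 3 to 8 (Input above Myc), 1 to 5 (Input above PCM1), 0 to 4 (Myc above Input), 2 to 4 (Myc above PCM1), 2 to 4 (PCM1 above Input) and 4 to 5 (PCM1 above Myc), and regions in the same order from 30 to 109, 19 to 113, 9 to 51, 34 to 65, 4 to 51 and 31 to 61. The highest counts with Input above another group came without Input replicate 2, and with another group above Input without Input replicate 1. The smaller gene set, an alternative added after seeing the data, moved no background share by more than 0.1 percentage points. The shares of all genes and regions given beside counts under other settings were also added after seeing the data. Of the 47 regions found in a single library, the deeper Input replicate gave 18 and the shallower 2. Each Myc replicate gave 6, and the first and second PCM1 replicates gave 12 and 3. A peak missing from a shallower library may lie under its detection limit, and the part of depth in these counts was not tested.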
